A study of Homo sapiens with 17 samples.

Results

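The genes described here encode the acute phase proteins SAA1 and SAA2, their receptor TLR2, the Toll-like receptors TLR1, TLR6 and TLR4, the co-receptor CD14 and the adaptor MYD88. The 8 genes were chosen by name, and each was found by its Ensembl gene ID among the 62754 genes of every count table. A filter on low counts left 19473 genes for testing. Of the 8 genes, 7 passed it and TLR4 did not. Only TLR2, TLR6 and MYD88 passed whichever pair of the study's groups was fitted. SAA1 and SAA2 passed only with the siNT libraries treated with 4-hydroxytamoxifen (4OHT) present, TLR1 only with the DMSO libraries present, and CD14 only with both. Where a difference of these genes was called, the same fit without the filter is given beside it or in its place, except where single libraries were left out.

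Poly(A) RNA was sequenced from 17 libraries of IMR90 ER:RAS cells, human lung fibroblasts infected with a retrovirus that encodes RASG12V fused to an estrogen receptor domain. Addition of 4OHT activates the fusion protein and induces oncogene-induced senescence (OIS). Small interfering RNAs (siRNAs) were transfected one day before 4OHT or the vehicle dimethyl sulfoxide (DMSO), and RNA was taken at day 7. The target, SMARCA4 (BRG1), is a catalytic subunit of SWI/SNF, a complex that remodels nucleosomes. The 3 groups were DMSO with non-targeting siRNA (DMSO siNT, n = 5), 4OHT with non-targeting siRNA (4OHT siNT, n = 6) and 4OHT with siRNA against SMARCA4 (4OHT siSMARCA4, n = 6). All groups therefore share the ER:RAS transgene, its selection and a transfection. DMSO cells with siSMARCA4 were not analysed here, so an effect of the knockdown in growing cells cannot be told apart from one in senescent cells.

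Serum amyloid A proteins are small apolipoproteins. The liver secretes them in the acute phase response, and interleukin-1 and IL-6 induce their genes through NF-kB, C/EBP and STAT3. SAA1 and SAA2 bind several receptors, among them TLR2, a cell surface receptor that recognises lipopeptides as a pair with TLR1 or TLR6. TLR4 is the receptor for lipopolysaccharide, and CD14 hands ligands to both TLR2 and TLR4. MYD88 couples these receptors, and the interleukin-1 receptor, to IRAK kinases, TRAF6 and NF-kB. In oncogene-induced senescence, serum amyloid A and TLR2 are known as a signalling axis that adds to the senescence-associated secretory phenotype (SASP).

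Library totals ran from 39109479 to 68978119 counts. In the knockdown libraries SMARCA4 itself was at 88.0 ± 22.8 CPM (counts scaled to library size and by the trimmed mean of M values; SD, n = 6), against 268 ± 13.2 CPM in 4OHT siNT (SD, n = 6), a log2 fold change of -1.61 (edgeR, adjusted p = 5.1e-07). The 8 fibroblast markers summed to 22839 to 27432 CPM in DMSO, 13347 to 17446 CPM in 4OHT siNT and 7492 to 10773 CPM in 4OHT siSMARCA4, and all except VIM were called lower in both steps (27.4% of all genes with 4OHT and 13.8% with knockdown). Monocyte and macrophage markers, 9 genes, summed to 0.349 to 1.04 CPM in DMSO, 1.11 to 1.36 CPM in 4OHT siNT and 0.861 to 1.37 CPM in 4OHT siSMARCA4. DMSO and 4OHT siNT sums thus did not overlap. Of these genes, PTPRC, LYZ and CD163 held 50, 29 and 29 counts over the 17 libraries together. AIF1, SPI1, TYROBP and ITGAM held 3, 11, 9 and 14. CSF1R and FCER1G, the 2 that passed the filter, were both higher with 4OHT (log2 fold change 0.80 and 1.15; edgeR, adjusted p = 0.0097 and 0.023), as were 27.0% of all genes. Endothelial markers summed to 0.855 to 1.95 CPM in DMSO, 3.95 to 5.94 CPM in 4OHT siNT and 2.05 to 4.46 CPM in 4OHT siSMARCA4, highest in 4OHT siNT as SAA1 and TLR2 were. All 3 that were tested were higher with 4OHT (27.0% of all genes). Of these, PECAM1 alone was lower with knockdown (log2 fold change -1.43; edgeR, adjusted p = 0.0046), as were 13.8% of all genes. Epithelial markers summed to 71.0 to 92.7, 65.3 to 81.7 and 35.3 to 58.3 CPM in the same order of groups, and all 3 tested were lower with knockdown (13.8% of all genes). KRT18 and KRT8 made up most of these sums (63.2 and 17.7 CPM on average in DMSO). EPCAM averaged 0.869 CPM in DMSO, and CDH1 had 22 counts over the 17 libraries. The part of these markers in the results was not tested. The 4 hepatocyte markers summed to at most 0.0995 CPM. Library titles end in a replicate number and the letters V or VM, a suffix that is not explained. All 6 libraries of 4OHT siNT were VM, 3 of the 4OHT siSMARCA4 libraries were VM and 3 were V, and 2 of the 5 DMSO libraries were V. Of the 8 genes, SAA2 and TLR2 differed with this suffix by the test given below, and knockdown values without the V libraries are given for the genes that were called.

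**Figure D1:**
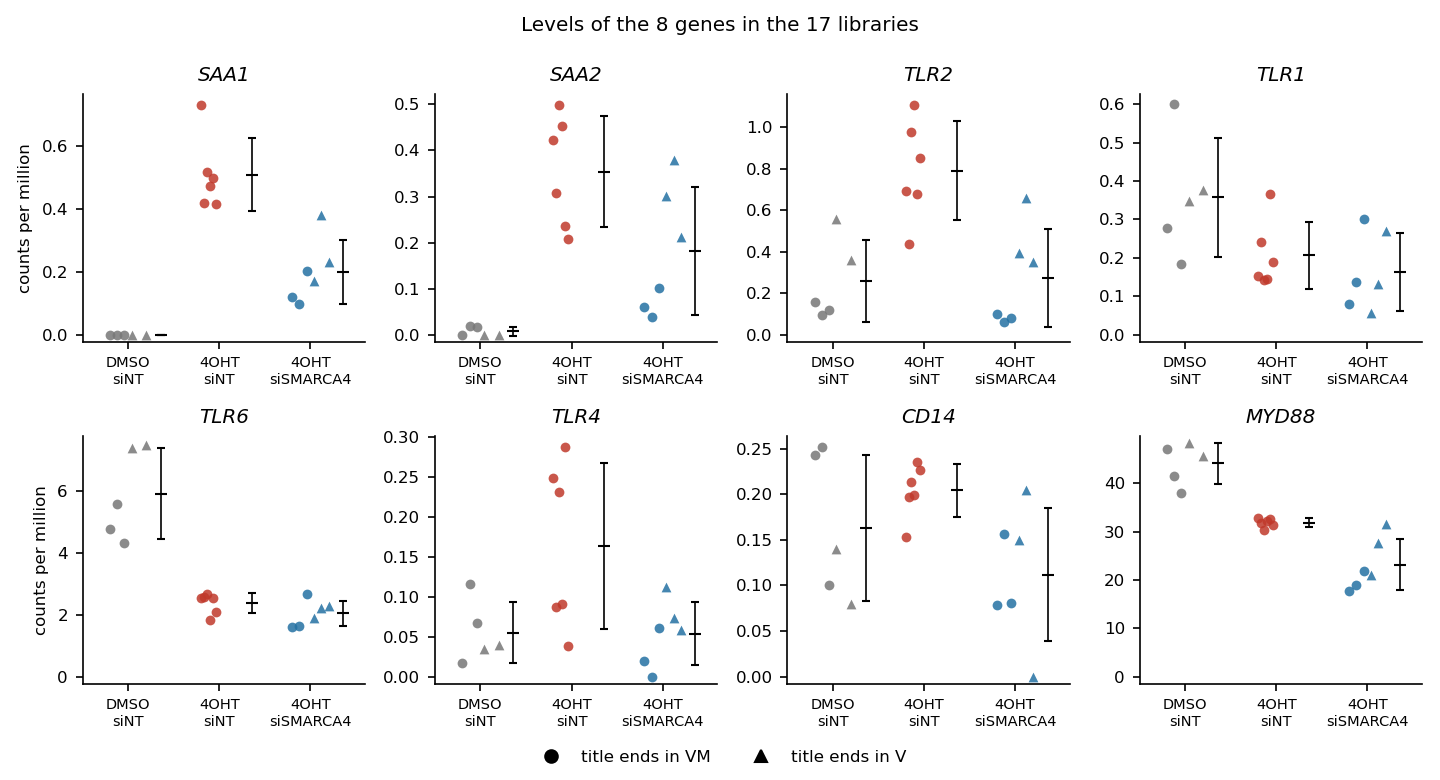
Levels in CPM (vertical axes, linear, a scale of its own for each gene) of the 8 genes in each library of the 3 groups. Circles are libraries with titles in VM, triangles those in V, and the bars beside them are means ± SD. SAA1 was at 0 in every DMSO library and highest in 4OHT siNT, and the V libraries of siSMARCA4 lay above the VM libraries for SAA2 and TLR2.

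Both ligand genes were silent or nearly so in DMSO cells and were expressed at a low level in senescent cells. SAA1 had 0 counts in each of the 5 DMSO libraries. In 4OHT siNT it had 19, 19, 22, 26, 29 and 38 counts, or 0.508 ± 0.116 CPM (SD, n = 6). No 4OHT library was without SAA1 reads, so the groups did not overlap. Set against the limit that a count of 0 allows, 3 counts over the DMSO libraries together, SAA1 was at least 43.6-fold higher in 4OHT siNT. In the fit without the filter, edgeR's quasi-likelihood test called the difference (adjusted p = 3.9e-09). With SMARCA4 knocked down, SAA1 was still at least 18.4-fold above DMSO on the same floor (adjusted p = 3.5e-07 in that fit). These limits, and the interval given for SAA2 next, cover counting error only.

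SAA2 had a single count in each of 2 DMSO libraries and none elsewhere in that group. In 4OHT siNT it ranged from 9 to 28 counts with a median of 18, or 0.354 ± 0.121 CPM (SD, n = 6). The lowest senescent library thus held more than the highest DMSO library. The ratio of 4OHT siNT to DMSO in library-scaled counts was 46.6 (exact 95% counting interval 12.6 to 390), called by edgeR without the filter at adjusted p = 1.2e-06. For 4OHT siSMARCA4 against DMSO it was 25.5 (6.78 to 216; same fit, adjusted p = 4.3e-05), a call lost in the VM libraries alone without the filter (log2 fold change 2.27, adjusted p = 0.063). Per kilobase of exon, SAA1 stood at 0.478 ± 0.109 CPM and SAA2 at 0.158 ± 0.0538 CPM in 4OHT siNT (SD, n = 6), and TLR6, at 0.346 ± 0.0484 CPM, was the only ligand or receptor gene of the 8 between them. The length used covers the exons of all annotated transcripts, 1062 bases for SAA1 and 2242 for SAA2, and these values depend on it.

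SMARCA4 knockdown lowered SAA1 in senescent cells. The 6 siSMARCA4 libraries held 5, 6, 9, 10, 12 and 26 SAA1 counts, or 0.200 ± 0.102 CPM (SD, n = 6). Every one of them lay below every 4OHT siNT library in CPM. The log2 fold change was -1.31 ± 0.31 (SE), which left 40.2% of the siNT level (edgeR, adjusted p = 0.0072). Without the filter it was -1.28 ± 0.34 (SE; adjusted p = 0.016). By the siRNA number in the titles, it was -2.16 for number 2 and -0.66, not called, for number 4 (edgeR, adjusted p = 0.21). The VM libraries of siSMARCA4 gave -1.86, and the V libraries -0.94, not called (adjusted p = 0.082). All 4OHT siNT libraries are VM, so the V value mixes suffix and knockdown. Among all tested genes, 12.0% had siSMARCA4 and siNT libraries that did not overlap. The order of SAA1 levels was therefore 4OHT siNT, 4OHT siSMARCA4 and DMSO siNT, with each neighbouring pair separated.

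SAA2 did not pass the test for the knockdown over all libraries. Its siSMARCA4 libraries held 2, 3, 5, 11, 16 and 26 counts, or 0.182 ± 0.139 CPM (SD, n = 6), and overlapped those of 4OHT siNT. The log2 fold change was -0.93 ± 0.43 (SE; edgeR, adjusted p = 0.13). The lowest libraries were those in VM. In those alone SAA2 was at 0.0663 ± 0.0313 CPM (SD, n = 3), below every siNT library, and a fit restricted to VM libraries gave a log2 fold change of -2.37 (adjusted p = 0.0027). The VM coefficient without the filter was -2.35 ± 0.56 (SE; adjusted p = 0.00043), while over all libraries SAA2 was not called without the filter either (-0.89, adjusted p = 0.24). SAA2 in the V libraries was at 0.298 ± 0.0840 CPM (SD, n = 3), within the siNT range.

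The counts of both ligand genes carry a limit of their sequence. SAA1 (chromosome 11, 18266260 to 18269977, plus strand) and SAA2 (chromosome 11, 18239223 to 18248668, minus strand; GRCh38, GENCODE v44) are neighbouring, near-identical protein-coding genes. Of the 110-base windows in the annotated SAA1 transcripts, 18.3% also occur in SAA2 transcripts, and the authors' counting divided reads with several positions by estimation, so the split between the pair is uncertain. Summed as 1 gene, the pair had a log2 fold change of -1.15 with knockdown (edgeR, adjusted p = 0.019), and of -1.12 without the filter (adjusted p = 0.032). The SAA2-SAA4 readthrough did not pass the filter, with 66 counts over the 17 libraries. It averaged 0.00335 ± 0.00750 CPM in DMSO (SD, n = 5), 0.148 ± 0.0475 CPM in 4OHT siNT and 0.0583 ± 0.0651 CPM in 4OHT siSMARCA4 (SD, n = 6 each), and DMSO and 4OHT siNT libraries did not overlap. Of its 634 windows of that length, 160 also occur in SAA2 and 77 in SAA1, so its reads are part of the same uncertainty. SAA4, a constitutive liver apolipoprotein, had 7 counts in all, and the pseudogene SAA3P had 0.

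TLR2, the receptor, rose in senescent cells and was lower with SMARCA4 knocked down. The 5 DMSO libraries held 5, 7, 9, 18 and 32 TLR2 counts, or 0.257 ± 0.198 CPM (SD, n = 5). In 4OHT siNT the counts were 20 to 61 with a median of 40.5, or 0.791 ± 0.239 CPM (SD, n = 6). One DMSO library, 2-1V, reached into the siNT range, and the other four lay below it. The log2 fold change was 1.62 ± 0.53 (SE; edgeR, adjusted p = 0.015). The titles also carry an siRNA number, 2 or 4. In the number 2 libraries alone the log2 fold change was 1.09 and not called (adjusted p = 0.14; 0.040 without the filter), against 2.83 in the number 4 libraries. Every V library of DMSO (2-1V and 2-2V) carries number 2, so number and suffix cannot be told apart in these values. In bulk RNA, a change in the share of cells that express a gene cannot be told apart from a change in RNA per cell.

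With knockdown the 6 libraries held 3, 4, 5, 18, 21 and 45 TLR2 counts, or 0.273 ± 0.238 CPM (SD, n = 6). The log2 fold change against 4OHT siNT was -1.50 ± 0.50 (SE), which left 35.4% (edgeR, adjusted p = 0.036). This call was close to the threshold. Leaving out a single library ended it in 7 of 12 cases (4OHT siNT 2-1VM, 2-2VM, 4-2VM and 4-3VM, and siSMARCA4 2-1VM, 2-3VM and 4-2VM), with adjusted p up to 0.078 and log2 fold changes from -1.997 to -1.294. Against DMSO, siSMARCA4 cells did not differ detectably in TLR2 (log2 fold change 0.12 ± 0.55, SE; edgeR, adjusted p = 0.87). In the number 4 libraries alone TLR2 was called higher without the filter (1.74, adjusted p = 0.0069) and not with it (adjusted p = 0.10). The DMSO libraries of that number are all VM, whereas siSMARCA4 4-2V and 4-3V are V, so number and suffix cannot be told apart there. The order of TLR2 levels was thus 4OHT siNT first, with 4OHT siSMARCA4 and DMSO siNT below it and not told apart over all libraries.

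Of the 7 tested genes, TLR2 had the largest difference between V and VM libraries within 4OHT siSMARCA4. Within 4OHT siSMARCA4 the VM libraries held 3, 4 and 5 counts and the V libraries 18, 21 and 45, a log2 difference of 2.54 ± 0.43 (SE; V minus VM; edgeR, adjusted p = 0.0040). The DMSO libraries divided the same way, with 5, 7 and 9 counts in VM and 18 and 32 in V (log2 difference 1.87 ± 0.43, SE; adjusted p = 0.054, and 0.022 without the filter). In an edgeR fit with 1 coefficient per group and suffix, the knockdown log2 fold change of the VM libraries was -3.29 ± 0.39 (SE; adjusted p = 1.8e-05). The same fit put 4OHT siNT 2.66 ± 0.36 (SE) above the VM libraries of DMSO (adjusted p = 1.1e-05).

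Across all genes, 3.70% differed between the V and VM libraries of 4OHT siSMARCA4, and 2 of the 7 tested genes did, namely TLR2 and SAA2 (log2 difference 2.14 ± 0.51, SE; adjusted p = 0.031, and 0.018 without the filter). SAA1 had a log2 difference of 0.91 ± 0.42 (SE; adjusted p = 0.27) and MYD88 one of 0.45 ± 0.12 (SE; adjusted p = 0.051, and 0.033 without the filter). Other transcripts moved with the suffix too. SMARCA4 was at 71.9 ± 5.53 CPM in the VM libraries and 104 ± 21.9 CPM in the V libraries of siSMARCA4 (SD, n = 3 each; log2 difference 0.54, adjusted p = 0.020), and IL1B, which encodes interleukin-1 beta, was 1.42 higher on the log2 scale in V (adjusted p = 0.0063). Their part in the TLR2 and SAA2 differences was not tested.

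**Figure D2:**
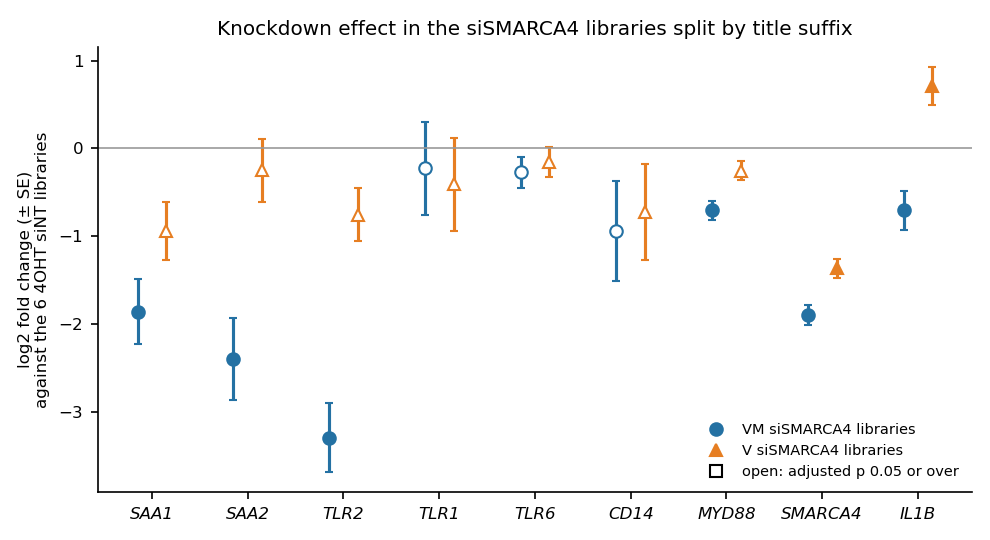
Log2 fold change (± SE, vertical axis) of each gene in 4OHT siSMARCA4 libraries with titles in VM (circles, n = 3) and in V (triangles, n = 3), each against all 6 4OHT siNT libraries. Those siNT libraries are all VM, so the triangles mix suffix and knockdown. Filled symbols had an adjusted p under 0.05. SAA1, SAA2, TLR2 and MYD88 were called lower in the VM libraries and in none of these cases in the V libraries, while IL1B was called in opposite directions.

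In the VM libraries SAA1, SAA2, TLR2 and MYD88 were called lower with knockdown, as were 15.7% of all genes. The log2 fold change there was -1.86 for SAA1 (-1.81 without the filter, adjusted p = 0.0018) and -0.70 for MYD88 (adjusted p = 0.00018). The V libraries of siSMARCA4 could be set only against 4OHT siNT libraries in VM. Suffix and knockdown therefore cannot be told apart in these V values. None of the 4 genes was called there (edgeR, adjusted p = 0.082, 0.71, 0.11 and 0.13), although each estimate was below 0. Of all genes, 7.03% were called lower there. The difference between the V and VM libraries itself passed the test for SAA2 and TLR2, and for MYD88 without the filter alone, as given above. SMARCA4 was called lower in both sets.

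TLR6, a partner receptor of TLR2, fell in senescence. Of TLR1, TLR2, TLR4 and TLR6, it was the most abundant in DMSO cells per kilobase of exon (0.861 ± 0.214 CPM, SD, n = 5), ahead of TLR1 at 0.0789 ± 0.0341 CPM and TLR2 at 0.0446 ± 0.0342 CPM. Its DMSO libraries read 4.33, 4.75, 5.56, 7.38 and 7.48 CPM, and the 4OHT siNT libraries ranged from 1.83 to 2.65 CPM with a median of 2.54 CPM. Thus no library of one group reached the other. TLR6 fell by 1.32 ± 0.17 (SE) on the log2 scale, to 40.2% of DMSO (edgeR, adjusted p = 2.7e-06). With knockdown it ranged from 1.62 to 2.66 CPM around a median of 2.05 CPM, not distinct from 4OHT siNT (log2 fold change -0.21 ± 0.17, SE; adjusted p = 0.39).

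TLR1 gave low counts in every group. The DMSO libraries held 11, 16, 19, 20 and 31 counts, 4OHT siNT 8 to 14 with a median of 9, and 4OHT siSMARCA4 3 to 15 with a median of 8. All 3 groups overlapped. Neither 4OHT (log2 fold change -0.81 ± 0.39, SE; adjusted p = 0.091) nor the knockdown (-0.32 ± 0.40, SE; adjusted p = 0.62) passed the edgeR test. With 1 library left out, 4OHT was called in 2 of 11 fits with the filter. These were without DMSO 4-3VM (-0.98, adjusted p = 0.044) and without 4OHT siNT 2-3VM (-1.05, adjusted p = 0.034). Between the ends of the order, 4OHT siSMARCA4 was below DMSO (log2 fold change -1.13 ± 0.40, SE; adjusted p = 0.022), a call that held without the filter (adjusted p = 0.039) and was lost in the VM libraries alone (adjusted p = 0.15), with the replicate block (adjusted p = 0.14), in the number 4 libraries (adjusted p = 0.31) and without the DMSO library 4-2VM (log2 fold change -0.88, adjusted p = 0.081). TLR1 (38790677 to 38856817) and TLR6 (38822897 to 38856817) overlap on the minus strand of chromosome 4, with the annotated span of TLR6 inside that of TLR1 and the same start. They share 2.26% of the 110-base windows of TLR1.

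The mean levels per kilobase of TLR2 and TLR6 drew closer in senescent cells. In DMSO they stood at 0.0446 and 0.861 CPM, in 4OHT siNT at 0.137 and 0.346 CPM, and in 4OHT siSMARCA4 at 0.0473 and 0.299 CPM. TLR6 was the higher of the pair in all 3 groups.

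The upstream sequences of TLR2, MYD88 and TLR6 are shown for orientation. Whether base composition there goes with the direction of change was not tested. RefSeq promoter windows (GRCh38.p14) matched 5 of the 8 genes: TLR2, TLR6, MYD88, CD14 and TLR4. Entries for SAA1, SAA2 and TLR1 were not used here. In the 250 bases before the RefSeq start, TLR2 had 72.4% G and C with 26 CG dinucleotides, MYD88 64.4% with 19, and TLR6 36.4% with 4. Of the 34943 windows of this length, 19.5% held at least as many CG dinucleotides as TLR2, 34.6% as many as MYD88 and 70.6% as many as TLR6. The RefSeq start lies 210 bases inside the GENCODE v44 gene for TLR2, 109 bases for MYD88, 0 for TLR6, 525 for CD14 and 228 for TLR4, so most of the TLR2 and TLR4 windows and the whole CD14 window are within the annotated gene. The lines give, 5′ to 3′ on the strand of the gene, the 40 bases before the outermost transcript start in GENCODE v44, with CG dinucleotides in capitals.
TLR2 (chr4:153684030-153684069, plus strand): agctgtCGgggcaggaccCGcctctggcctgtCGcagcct
MYD88 (chr3:38138512-38138551, plus strand): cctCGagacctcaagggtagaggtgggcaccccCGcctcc
TLR6 (chr4:38856818-38856857, minus strand): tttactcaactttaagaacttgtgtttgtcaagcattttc
Within the 250 upstream bases, the NF-kB consensus was matched on neither strand in any of the 5 genes, and 5.197% of all windows hold it. An AP-1 motif (TGACTCA or TGAGTCA) and a STAT motif (TTCCNGGAA) were matched in CD14 only (held by 4.22% and 0.967% of windows), and a C/EBP motif (TTACNNAA or TTGCNNAA) in TLR6 and CD14 (15.3% of windows). A TATA box (TATAAA, 10.75% of windows) was matched in none. Both strands were searched, and the CD14 matches do not overlap each other. These are matches of letters and not measured sites.

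TLR4 and CD14 had the fewest reads of the receptor genes. TLR4 had 1, 2, 2, 4 and 6 counts in DMSO, 2 to 13 with a median of 8 in 4OHT siNT, and 0 to 6 with a median of 3 in 4OHT siSMARCA4, and all groups overlapped. In the edgeR fit without the filter its log2 fold change was 1.4964 ± 0.59 (SE) with 4OHT (adjusted p = 0.066) and -1.49 ± 0.56 (SE) with knockdown (adjusted p = 0.11). Its 4OHT siNT counts differed by siRNA number, with 11, 13 and 13 for number 2 and 2, 4 and 5 for number 4. In the number 2 libraries alone, without the filter, its log2 fold change was 2.95 with 4OHT (adjusted p = 0.0013) and -2.40 with knockdown (adjusted p = 0.015), and in the number 4 libraries -0.39 and -0.13 (adjusted p = 0.84 and 1). The difference between numbers 2 and 4 in the knockdown effect did not pass the test (adjusted p = 0.47). Without the filter the knockdown coefficient for the VM libraries was -2.47 (adjusted p = 0.015). With the replicate block the knockdown value was -2.09 (edgeR without the filter, adjusted p = 0.033), and with a term for the suffix the 4OHT value was 1.66 (adjusted p = 0.027). Among the alternatives, TLR4 gained a call in 6 of 12 for the knockdown and in 3 of 8 for 4OHT. Several of these refit the same number 2 or VM libraries, so the tallies are not separate evidence. CD14 had 4, 6, 8, 13 and 14 counts in DMSO, 8 to 12 with a median of 10 in 4OHT siNT, and 0 to 14 with a median of 6 in 4OHT siSMARCA4. No comparison of CD14 passed the test (edgeR, adjusted p = 0.57 for 4OHT and 0.19 for knockdown), and a difference was not detectable at this depth. Lack of a call does not show that either gene stayed level.

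MYD88, the adaptor, was by far the best measured of the 8 genes and was lower in each step. In DMSO it read 38.1, 41.6, 45.6, 47.0 and 48.3 CPM, in 4OHT siNT 30.4 to 32.8 CPM with a median of 32.0, and in 4OHT siSMARCA4 17.8 to 31.5 CPM with a median of 21.5. The 4OHT siNT libraries all lay below the DMSO libraries. One V library of siSMARCA4, 4-3V, reached the siNT range and the other five did not. The log2 fold change was -0.47 ± 0.12 (SE) with 4OHT (edgeR, adjusted p = 0.0025) and -0.46 ± 0.11 (SE) with knockdown (adjusted p = 0.0073), leaving 72.2% and 72.7%. Together they left 52.5% of DMSO (adjusted p = 2.0e-06). Levels of MYD88 thus ranked DMSO siNT, 4OHT siNT and 4OHT siSMARCA4, with both steps called over all libraries. In the number 4 libraries alone neither step was called (-0.37 with 4OHT, adjusted p = 0.060, and -0.20 with knockdown, adjusted p = 0.38).

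**Figure D3:**
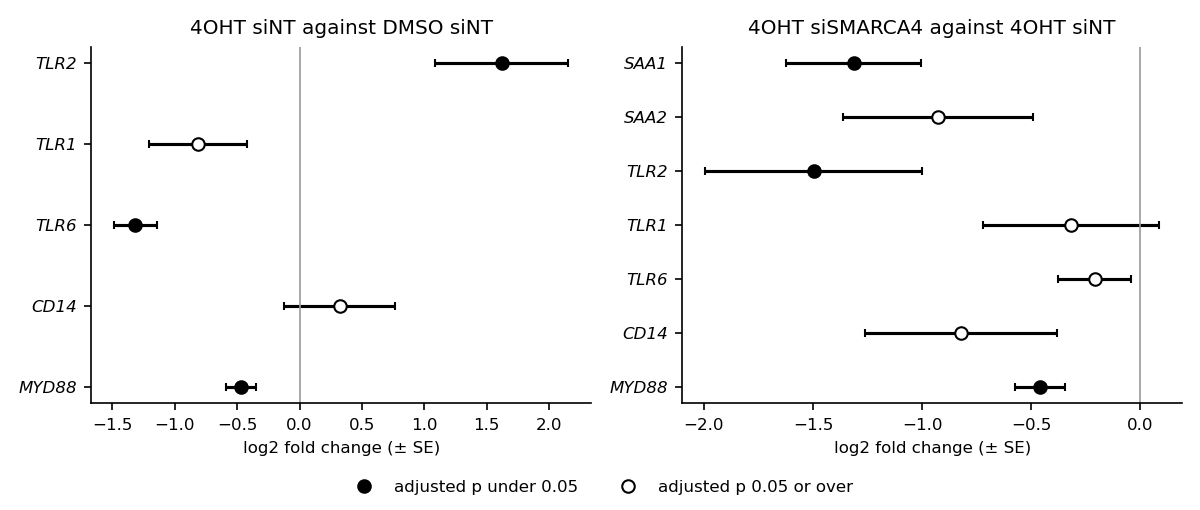
Log2 fold changes (± SE, horizontal axes) of 4OHT siNT against DMSO siNT for the 5 tested genes with reads in DMSO (left; SAA1 and SAA2 are left out because DMSO held 0 and 2 counts), and of 4OHT siSMARCA4 against 4OHT siNT for the 7 tested genes (right). Filled points had an adjusted p under 0.05, and every estimate on the right lies below 0, with SAA1, TLR2 and MYD88 filled.

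Of the genes that passed the filter with any pair of groups, TLR2 was called higher with 4OHT, and TLR6 and MYD88 lower. Over all genes 54.4% were called in that comparison, 27.0% higher and 27.4% lower, and the libraries of 39.6% did not overlap, as for TLR6 and MYD88. With the knockdown TLR2 and MYD88 were lower and TLR6 was not called, where 24.2% of all genes were called, 10.4% higher and 13.8% lower. Between 4OHT siSMARCA4 and DMSO, TLR6 and MYD88 were lower without overlap and TLR2 was not called, where 55.1% of all genes were called, 26.5% higher and 28.6% lower, and 36.3% did not overlap. The comparisons share groups, and these shares are descriptions.

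The siRNAs carry the numbers 2 and 4 in the titles, with 3 siSMARCA4 libraries each. Whether a number on a siNT library marks a match to the siSMARCA4 libraries of that number is not stated, and they were compared as matched. For SAA1, the 3 libraries of number 2 held 5, 6 and 9 counts and those of number 4 held 10, 12 and 26. Against the siNT libraries of the same number, the SAA1 log2 fold change was -2.16 ± 0.36 (SE; edgeR, adjusted p = 0.0014, and 0.00044 without the filter) for number 2 and -0.66 ± 0.33 (SE; adjusted p = 0.21) for number 4. For number 2, TLR2 (-2.07, adjusted p = 0.042) and MYD88 (-0.72, adjusted p = 0.00035) were lower too. TLR6 (-0.59, adjusted p = 0.042) lost its call without the filter (adjusted p = 0.15), where SAA2 gained one (-1.49, adjusted p = 0.048). Number 4 gave no call among the 7 tested genes, of which MYD88 alone was under 0.05 unadjusted. Without the filter TLR2 was instead (edgeR, unadjusted p = 0.0054, adjusted p = 0.065). Of all genes, 11.9% were lower for number 2 and 7.22% for number 4, and 19.0% and 16.1% were called in either direction. The difference between numbers passed the test for none of the 7 genes (adjusted p from 0.14 for MYD88 upward, and 0.17 for SAA1), while 1.06% of all genes passed. At an unadjusted p under 0.05, 3 of the 7 differed (SAA1, TLR6 and MYD88), as did 15.5% of all genes. Without the siSMARCA4 library 4-2VM the difference was called for MYD88 (log2 difference -0.62; edgeR, adjusted p = 0.014). Numbers and suffixes are unevenly mixed in siSMARCA4, since number 2 has 1 V library and number 4 has 2. In DMSO every V library has number 2.

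Of 84 other genes on lists for this pathway, 59 were tested, of which 18 were higher with siSMARCA4, 5 were lower and 36 were not called. Over all genes, 10.4% were higher and 13.8% lower. The median log2 fold change over the 59 was 0.13, against -0.02 over all tested genes. With 4OHT, 28 of the 59 were higher and 11 lower, with a median of 0.25 against 0.00 over all genes, of which 27.0% were higher and 27.4% lower. These shares of all genes are the background for the lists that follow.

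Of the cytokines, receptors and factors known to induce serum amyloid A genes, several were higher with SMARCA4 knocked down. Of 10 tested genes on this list, 6 were higher with the knockdown and none was lower (median 0.45; 10.4% and 13.8% of all genes). IL6 averaged 52.1 ± 14.6 CPM in 4OHT siNT and 137 ± 43.98 CPM with knockdown (SD, n = 6 each). It rose by 1.40 ± 0.23 (SE) on the log2 scale (edgeR, adjusted p = 0.00037), and no siSMARCA4 library lay as low as a siNT library. IL6R, the IL-6 receptor, rose by 0.94 (adjusted p = 0.00030). IL1B went from 0.776 ± 0.376 CPM in DMSO (SD, n = 5) to 887 ± 204 CPM in 4OHT siNT (SD, n = 6; log2 fold change 10.1, adjusted p = 3.8e-12) and read 998 ± 530 CPM with knockdown (adjusted p = 0.72). That last comparison turned with the suffix, to -0.69 in the VM libraries alone (adjusted p = 0.0072). With 4OHT, 6 of the 10 genes rose (27.0% of all genes) and IL6R fell (log2 fold change -0.62, adjusted p = 0.0026).

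Among acute phase genes, 6 of 16 were tested, and 3 rose with 4OHT. With the knockdown 1 rose and 1 fell (10.4% and 13.8% of all genes), and 27.0% of all genes rose with 4OHT. C3, the central complement factor, rose by 6.42 on the log2 scale with 4OHT and by a further 0.59 ± 0.16 (SE) with knockdown (edgeR, adjusted p = 0.013). SERPINA1, alpha-1 antitrypsin, rose by 4.12 with 4OHT and fell by 1.64 ± 0.49 (SE) with knockdown (adjusted p = 0.021), but was at -0.42 in the number 4 libraries alone (adjusted p = 0.64). CFB, complement factor B, was the one gene that fell with 4OHT (log2 fold change -1.47, adjusted p = 0.0019), a call lost in the number 4 libraries alone (-0.39, adjusted p = 0.48) and with the replicate block (-0.96, adjusted p = 0.058). CRP, another major acute phase protein of liver, had 0 counts, and the haptoglobin gene HP had 1.

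Among the accessory genes, LY96, the MD-2 subunit of the lipopolysaccharide receptor, averaged 8.66 ± 2.39 CPM in 4OHT siNT and 21.2 ± 6.72 CPM in 4OHT siSMARCA4 (SD, n = 6 each). The increase was 1.29 ± 0.22 (SE) in log2 units (edgeR, adjusted p = 0.00038). Of 6 accessory genes tested, CD14 included, 3 were higher with knockdown and none lower (10.4% and 13.8% of all genes). UNC93B1, which escorts endosomal Toll-like receptors, was lower with 4OHT (log2 fold change -1.12, adjusted p = 3.6e-09). The endosomal receptor for double-stranded RNA, TLR3, had the largest fall with 4OHT among the 5 tested Toll-like receptors, with 1.41 ± 0.935 CPM in DMSO (SD, n = 5) and 0.0896 ± 0.0568 CPM in 4OHT siNT (SD, n = 6). Its change on the log2 scale was -3.97 (adjusted p = 2.7e-06). TLR7, TLR8, TLR9 and TLR10 did not pass the filter, at 2 to 13 counts each over all libraries. Alternative receptors for serum amyloid A were divided. SCARB1, a scavenger receptor, rose by 0.98 with 4OHT (adjusted p = 7.9e-09) and fell by 0.42 ± 0.08 (SE) with knockdown (adjusted p = 0.00071). The purinergic receptor gene P2RX7 fell with 4OHT (log2 fold change -3.28, adjusted p = 1.9e-06), and the formyl peptide receptors FPR1 and FPR2 had 8 and 4 counts in all.

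Downstream of MYD88, IRAK2 averaged 11.8 ± 0.483 CPM in DMSO (SD, n = 5), 51.8 ± 7.18 CPM in 4OHT siNT and 76.8 ± 6.195 CPM in 4OHT siSMARCA4 (SD, n = 6 each), and both rises were called by edgeR (adjusted p = 1.1e-12 and 0.00012). IRAK4, the kinase that MYD88 recruits first, fell with 4OHT (log2 fold change -1.43, adjusted p = 6.8e-10). IRAK1 was lower with knockdown by a log2 fold change of -0.30 ± 0.08 (SE; adjusted p = 0.012), a call lost in 5 of the 12 alternatives other than leaving out a library, with adjusted p from 0.056 to 0.20 where it was lost. The IRAK and TRAF6 list held 13 tested genes, of which 2 were higher and 3 lower with knockdown, and 5 higher and 1 lower with 4OHT, where 24.2% and 54.4% of all genes were called. In the other adaptors the knockdown gave no call among 4 tested. TICAM1 rose with 4OHT (0.63, adjusted p = 7.6e-06) and TICAM2 fell (-0.50, adjusted p = 0.00011).

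All 10 tested negative regulators were called with 4OHT, 7 higher and 3 lower, against 54.4% of all genes (27.0% higher and 27.4% lower). TNFAIP3, the deubiquitinase A20, rose by 2.47 on the log2 scale (edgeR, adjusted p = 2.5e-07). SIGIRR, a receptor of the interleukin-1 receptor family that restrains this signalling, fell by 1.02 with 4OHT (log2 fold change -1.02, adjusted p = 4.0e-05) and rose by 0.85 ± 0.16 (SE) with knockdown (adjusted p = 0.0012). CYLD was the gene of this list with the largest fall between DMSO and 4OHT siSMARCA4 (log2 fold change -0.80, adjusted p = 1.5e-06). Of the 6 genes on the NF-kB list, 5 subunits and the IkB family gene NFKBIZ, 5 rose with 4OHT (27.0% of all genes), led by RELB (1.63, adjusted p = 3.2e-08), and 4 rose with knockdown (10.4% of all genes), led by REL (0.64 ± 0.17, SE; adjusted p = 0.010). REL lost its call in the VM libraries alone (0.48, adjusted p = 0.077), with a term for the suffix (adjusted p = 0.056), with the replicate block (adjusted p = 0.085) and in the number 4 libraries alone (0.62, adjusted p = 0.11). NFKBIZ was among the risen genes in both. The knockdown lowered none of the 6 (13.8% of all genes).

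**Figure D4:**
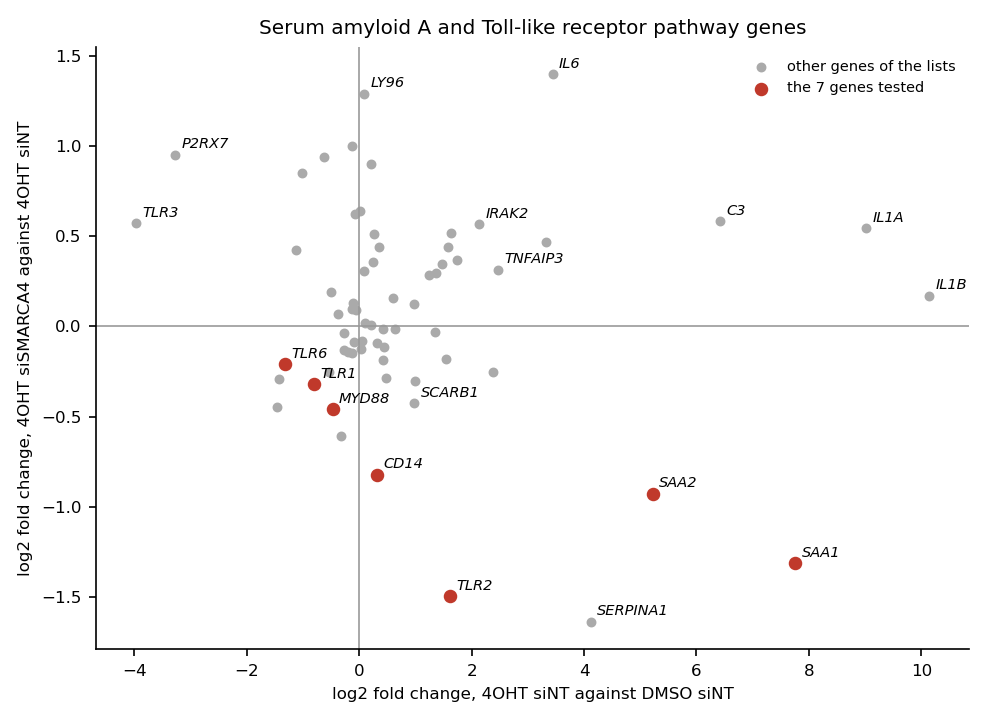
Log2 fold change of 4OHT siNT against DMSO siNT (horizontal axis) and of 4OHT siSMARCA4 against 4OHT siNT (vertical axis) for the 7 tested genes of the axis (red) and the 59 other tested genes of the lists (grey). Both axes use the same 4OHT siNT libraries, and the horizontal values of SAA1 and SAA2 are fitted against 0 and 2 counts in DMSO. SAA1, SAA2, TLR2 and SERPINA1 lie at lower right, and IL6, IL1A, IL1B and C3 above the horizontal line.

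Genes with a profile like those of SAA1, SAA2 and TLR2 were sought among 13213 other genes with a mean of at least 1 CPM. By distance in the plane of the same log2 fold changes, ABCB1 (0.10), TMEFF2 (0.11), COL4A6 and CHST1 were nearest to TLR2. The SEs of the TLR2 values themselves, 0.53 with 4OHT and 0.50 with knockdown, exceed these distances. Which genes are truly nearest is therefore not settled, and the names are descriptions. ABCB1 read 0.900, 2.58 and 0.892 CPM on average in DMSO siNT, 4OHT siNT and 4OHT siSMARCA4. Distances from SAA1 and SAA2 are left out, because their fold changes with 4OHT rest on 0 and 2 counts in DMSO and cannot rank genes either.

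By Pearson's r over the 17 libraries with the group means removed, RWDD2A (0.90), FYN, IFNAR2, TRAF3IP2 and LINC00886 were highest with SAA1, and SERPINA9 (0.93), CST4, NDP, CST2 and MYO1D with SAA2. SAA1 had 0 counts in every DMSO library, so its r rests on the 4OHT libraries, where its counts were low. SAA2 had only 2 counts in DMSO, which limits its r as well. MEDAG (0.96), IVNS1ABP (0.93), the chemokine gene CCL2 (0.91), BEGAIN and TMX4 were highest with TLR2. The libraries differ in depth and title suffix, which all genes of a library have in common, and these values are descriptions.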

How the data were processed

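Per the labels and the methods of the study, poly(A)-selected, strand-specific paired-end libraries were trimmed with Cutadapt 4.7, aligned to GRCh38 with HISAT2 2.2.1 and counted with TElocal, reverse-stranded, with multimapping reads divided by estimation. Each library's deposited table gives expected counts, unnormalised and written as whole numbers, for 62754 genes and for repeat loci. The genes and lists were chosen with earlier results of these data known. Repeat loci were summed per subfamily and tested with the genes. Features were kept by filterByExpr (minimum count 10, minimum total 15) and scaled by the trimmed mean of M values (factors 0.949 to 1.08). Groups were compared with edgeR 4.0.16 (quasi-likelihood, 1 coefficient per group) in R 4.3.3. Benjamini-Hochberg adjustment ran over all 19473 genes, with a threshold of 0.05. SE is the log2 fold change over the square root of F. Alternatives included DESeq2 1.42.0. The steps were tested on simulated data. Only genes with more counts than SAA1, SAA2, TLR1, TLR2, TLR4 and CD14 were changed there, so tests at such low counts were not covered.

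The genes named are the 8 genes, SMARCA4, from each list the called gene with the largest change per comparison and direction, and the 5 nearest genes by each measure of likeness. One of these is not reported here, and distances from SAA1 and SAA2 were left out. IL1A is shown in a figure, and CRP, HP, FPR1, FPR2, TLR7, TLR8, TLR9, TLR10 and single marker genes were named after their values were seen. No pair of replicates agreed within sampling noise (lowest chi-square per degree of freedom 4.68). Nothing in the labels says that replicates are separate cultures, so p-values measure the spread between these libraries, which may be technical.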

Additional observations from a re-analysis of the deposited data

Results flagged for a closer look

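SAA1 in the 4OHT siNT library 2-1VM (38 counts, 0.728 CPM) stood apart from the other five libraries of its group (0.416 to 0.516 CPM) by Dixon's criterion. Across the 23 sets of libraries examined, 1 was beyond the limit, and chance puts about 1 in 20 there. Without this library the SAA1 log2 fold change with knockdown remained called, as it did with any other single library of the 2 groups left out (-1.62 to -1.18). These fits used the filter, which SAA1 passes only with the 4OHT siNT libraries (edgeR, adjusted p up to 0.020). Without the filter SAA1 was called over all libraries (adjusted p = 0.016), and only siSMARCA4 4-2V was left out in such a fit.

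Within 4OHT siSMARCA4, V libraries were above VM libraries by 2.14 on the log2 scale for SAA2 (edgeR, adjusted p = 0.031). For TLR2 the difference was 2.54 (adjusted p = 0.0040). There were 3 libraries of each kind, and each V library lay above each VM library. All 4OHT siNT libraries are VM, so suffix and knockdown are partly confounded. No knockdown effect could be estimated among V libraries, and whether that effect differs with the suffix was not tested. In DMSO siNT, without a knockdown, TLR2 was 1.87 ± 0.43 (SE) higher in V on the log2 scale (edgeR, adjusted p = 0.054). SAA2 had 2 counts in that group. What the suffix stands for is not given.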

How the results depend on the processing

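With the replicate block, which takes the replicate number with its suffix as a block, the knockdown log2 fold change of SAA2 was called at -2.17 (edgeR, adjusted p = 0.0054), and it was called too with a term for the suffix (-2.11), in the VM libraries alone (-2.37) and summed with SAA1 (-1.15). Without the filter these were -2.13 with the replicate block (adjusted p = 0.00077), -2.06, -2.35 and -1.12, all called. Libraries of the same number and suffix did not all deviate together: over 16 pairs r ran from -0.45 to 0.53 with 8 over 0.1, and over the 7 that also shared the siRNA number from -0.45 to 0.30 with 2 over 0.1. The labels do not say that the numbers pair the libraries. Leaving out 1 library in turn gave knockdown values of -1.30 to -0.73 for SAA2, called without siSMARCA4 4-2V (but not without the filter as well, adjusted p = 0.071), and of -1.997 to -1.294 for TLR2. In the number 4 libraries alone, SAA1 (-0.62), TLR2 (-1.07) and MYD88 were not called with knockdown, 0 of the 7 genes was called by edgeR (0 also at an unadjusted p under 0.05; DESeq2 was not run on these libraries), and 1198 genes in all were, against 4703. These counts are with the filter, and without it TLR2 had an unadjusted p of 0.0049 (edgeR, adjusted p = 0.069). In the number 2 libraries alone, which include every V library of DMSO, TLR2 was not called with 4OHT (1.09, adjusted p = 0.14; 0.040 without the filter). The V libraries of siSMARCA4 alone against 4OHT siNT, an alternative chosen after seeing the data, gave -0.94 for SAA1, -0.75 for TLR2 and -0.25 for MYD88, none called. Because 4OHT siNT is all VM, such V values mix suffix and knockdown. Without the filter, also chosen after seeing the data, the number 2 coefficient of SAA2 was called (-1.49), and the number 4 coefficients of SAA1 (-0.63), TLR2 (-1.08) and MYD88 (-0.21) and their V coefficients (-0.91, -0.72 and -0.22) were not. Against DMSO without the filter, siSMARCA4 was not called for SAA2 in the VM libraries (2.27) and was called for TLR2 in the number 4 libraries (1.74). The number 4 DMSO libraries are all VM, so number and suffix cannot be told apart in that value. Fitting only 4OHT siSMARCA4 and DMSO removed SAA1, SAA2 and CD14 by the filter and left 3 of the 8 genes called, against 5 in the fit of all groups. In that fit 55.1% of all genes were called. The 5 include SAA1 and SAA2, which passed the filter only with the 4OHT siNT libraries present. IL1B with knockdown turned to -0.69 in the VM libraries. Of the 59 other pathway genes, 18 were higher and 5 lower with knockdown, against 5 and 0 in the number 4 libraries alone (where C3, SERPINA1, SIGIRR, REL, RELB, SCARB1, IRAK1 and IRAK4 were among those that lost their calls), and 2 were lower without the filter and with the replicate block. In the number 4 libraries C3 (0.68), REL (0.62) and IRAK1 (-0.31) kept values near those over all libraries. Smaller values were those of SIGIRR (0.59), RELB (0.36), SCARB1 (-0.32), IRAK4 (-0.08) and SERPINA1 (-0.42). Genes that differed between siRNA numbers were 207, and 17 to 845 with 1 library left out. The other alternatives, including DESeq2 and its size factors, TMM from genes alone and a term for the siRNA number, kept the direction and call of SAA1, TLR2 and MYD88 in every comparison in which these were called, except MYD88 with 4OHT in the number 4 libraries alone (-0.37, adjusted p = 0.060; 0.075 without the filter). SAA1 rested on at most 38 counts and TLR2 on at most 61 per library, which limits precision.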
